A study of Mus musculus with 3 samples.

Results

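The regions described here are HNF4A peaks that lie close together on the chromosome with no FOXA2 peak among them. They were chosen by their positions in the deposited lists: an HNF4A peak was taken when it lay in a cluster of at least 3 HNF4A peaks without a FOXA2 peak, after neighbouring peaks of both lists had been joined up to a fixed distance. The joining distance is given with the processing; the widest gap it joined in these clusters was 12493 bp. Peaks within 10 kb of an input region and mitochondrial peaks had been removed first, which left 11646 of 11703 HNF4A peaks and 8828 of 9338 FOXA2 peaks. The rule found 587 HNF4A peaks in 173 clusters, 5.04% of the HNF4A peaks kept (95% Wilson interval 4.66 to 5.45%).

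The peaks come from hepatoblasts, fetal liver cells that give rise to hepatocytes and to the lining of bile ducts. They had been sorted by magnetic beads for the surface protein DLK1 from pooled livers of wildtype C57BL/6 mouse embryos on embryonic day 14.5. Chromatin of these cells was precipitated with an antibody against HNF4A in 1 library and with an antibody against FOXA2 in another, and the remaining library held input chromatin without precipitation. The groups share strain, genotype, stage and cell type. The HNF4A and FOXA2 libraries differ by antibody, and the input library had none. Depth and peak threshold are not given, so differences in these between the lists could not be checked. With 1 library per antibody there was no replicate check of any value, and no test was made: values below describe the deposited lists, and intervals cover the number of peaks only. Neighbouring peaks share a locus and are not independent, so the intervals are too narrow where peaks cluster. The lists hold no expression values, so the purity of the sorted cells could not be checked against marker genes here.

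HNF4A is a nuclear receptor that binds DNA as a homodimer and maintains the expression of hepatocyte genes such as those for plasma proteins, lipid transport and metabolism. FOXA2, of the forkhead family, binds DNA wrapped on nucleosomes and takes part in opening liver enhancers, where both factors often occur together. Groups of neighbouring binding regions are a common layout of strongly regulated loci, in which a promoter and several enhancers lie within reach of each other. No annotation of the build used by the files, mm9, was used here, so the regions are given by position and not by gene, and no sequence is shown.

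FOXA2 peaks were close to most groups of HNF4A peaks. When HNF4A peaks were joined alone, 2251 of them formed 625 clusters of 3 or more. Of these clusters 417 had a FOXA2 peak inside their bounds, and another 35 had one outside but within the joining distance. The remaining 173, or 27.68% of the 625, are the FOXA2-free clusters. To describe how this number depends on where FOXA2 lies, the whole FOXA2 list was moved along the chromosomes by 25, 50, 100 or 200 kb in either direction while the HNF4A list stayed in place. The FOXA2-free clusters then numbered 342 and 360 at moves of 25 kb, 452 and 421 at 50 kb, 492 and 465 at 100 kb and 467 and 511 at 200 kb. Each of the 8 moves left more HNF4A clusters free of FOXA2 than the 173 of the lists as deposited. As a share of the 625 clusters this came to 54.72% to 81.76%. Clusters of 5 or more HNF4A peaks without FOXA2 numbered 12 as deposited and 26 to 70 after the moves. A moved peak can fall where no peak could be called, so these counts are a description and give no probability.

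**Figure D1:**
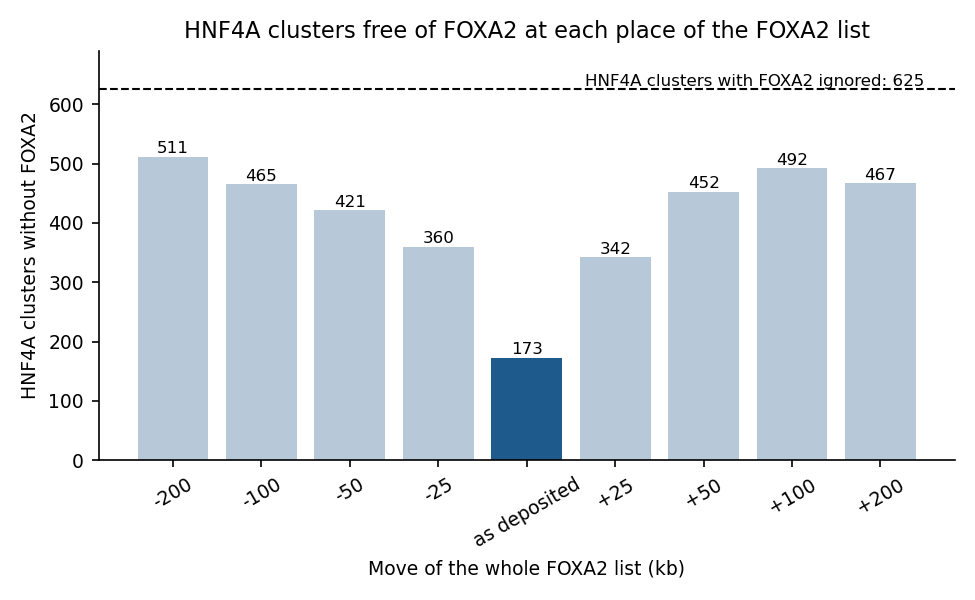
Number of FOXA2-free clusters of 3 or more HNF4A peaks (vertical axis) with the FOXA2 list as deposited (dark bar) and moved as a whole by the distance on the horizontal axis in kb (light bars; negative moves are toward lower coordinates). The dashed line marks the 625 HNF4A clusters formed with FOXA2 ignored; the count is 173 as deposited and 342 to 511 after the moves.

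Most clusters held 3 or 4 peaks, and their length depends on the joining distance. Median length was 5.27 kb with peaks joined up to 5 kb and 23.3 kb with peaks joined up to 25 kb. Of the 173, 129 held 3 HNF4A peaks, 32 held 4, 6 held 5, 4 held 6, 1 held 7 and 1 held 11. From the first to the last peak they spanned a median of 12.9 kb (95% interval of the median 11.1 to 13.5 kb), with a range of 1.54 to 39.5 kb. The median was 10.2 kb with 3 peaks, 18.6 kb with 4 and 23.2 kb with 5 or more. In these lists, HNF4A clusters with FOXA2 nearby were more often large: 12 of 173 FOXA2-free clusters (6.94%, Wilson interval 4.01 to 11.7%) held 5 or more HNF4A peaks, against 76 of the 452 clusters with a FOXA2 peak inside or within the joining distance (16.8%, 13.6 to 20.5%). Both groups were counted here with HNF4A peaks joined alone, so that FOXA2 peaks could not lengthen a cluster. A longer cluster also has more room to meet a FOXA2 peak, and how far that sets this difference was not tested. The lengths of both groups overlapped widely, with a median of 13.7 kb (12.8 to 14.5 kb) for the 452.

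The 414 gaps between neighbouring peaks had a median of 3805 bp (3218 to 4767 bp), an interquartile range of 1635 to 7734 bp and a smallest value of 17 bp. The largest was 12493 bp, just inside the limit set by the rule. Gaps under 500 bp made up 9.42% (39 of 414) and gaps under 1 kb added 32 more, so that most neighbours lay 1 kb or more apart. Whether neighbours are pieces of 1 binding region was not tested. Spacing in other HNF4A groups was alike under the same limit. In pairs of HNF4A peaks without FOXA2 the median gap was 3791 bp (3273 to 4258 bp, n = 605). In clusters of 3 or more HNF4A peaks that also held FOXA2, called mixed clusters here, it was 4085 bp (3782 to 4420 bp, n = 1250). These intervals overlap. Peaks with a neighbour closer than 1 kb had a median score of 23 (21 to 27, n = 135), and those whose nearest neighbour was more than 5 kb away had 24 (23 to 26, n = 181). The median score thus was much the same among close and distant neighbours.

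**Figure D2:**
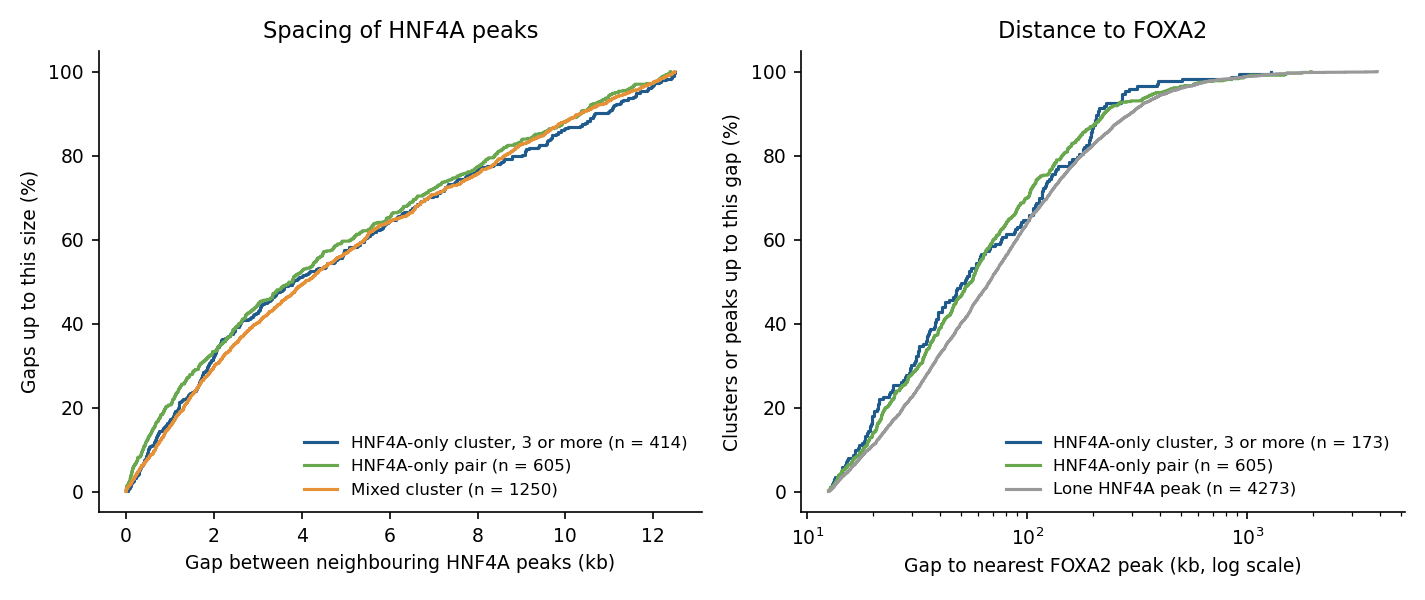
Cumulative percentage of gaps between neighbouring HNF4A peaks up to each size in kb (left; mixed clusters limited to gaps within the joining distance) and of clusters or peaks up to each gap to the nearest FOXA2 peak in kb on a log axis (right), by kind of HNF4A group. HNF4A-only clusters are the FOXA2-free clusters. The spacing curves lie close together, with medians of 3805, 3791 and 4085 bp, and the FOXA2-free clusters have a median gap to FOXA2 of 52.2 kb.

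The deposited score is a whole number per peak, with no definition in the sources used here. Scores were compared only within the HNF4A or the FOXA2 list. The scale is not known, so ratios, sums and variances of scores describe the deposited numbers and not amounts of binding. Scores of the 587 peaks ranged from 16, the lowest of the list, to 103, with a median of 24 (23 to 25) and an interquartile range of 19 to 34. Lone HNF4A peaks, with neither HNF4A nor FOXA2 within the joining distance, had a median of 21 (21 to 22, n = 4273), and HNF4A-only pairs had 23 (22 to 24, n = 1210). A peak of a FOXA2-free cluster outranked a lone peak in 57.0% of pairs drawn from both classes and a pair peak in 51.6%, with ties divided evenly. Peaks in groups therefore scored somewhat above isolated ones, with wide overlap. By chromosome, the clustered peaks had the higher median on 16 of 19 autosomes and the lower on chromosomes 1, 9 and 12.

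HNF4A peaks of mixed clusters had a median of 26 (25 to 26, n = 1786). This was above the FOXA2-free clusters on 14 of 19 autosomes, equal on 1 and below on 4. The gap lay in the HNF4A peaks that FOXA2 overlapped. HNF4A peaks overlapped by FOXA2 in mixed clusters had a median of 30 (29 to 32, n = 601), and a FOXA2-free cluster peak outranked them in 38.1% of pairs. The other HNF4A peaks of mixed clusters, next to FOXA2 but not overlapped by it, had a median of 24 (23 to 25, n = 1185), and a FOXA2-free cluster peak outranked them in 49.8% of pairs. The scores of FOXA2-free clusters were thus close to those of the unoverlapped HNF4A peaks of mixed clusters.

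The order of lone, FOXA2-free and overlapped peaks was the same at the ends of the scale. A score of 47 or more, the level set by the top 10% of the list, was reached by 66 of the 587 peaks, or 11.2% (8.94 to 14.1%), against 10.6% of all HNF4A peaks kept. The share was 5.97% in lone peaks (5.30 to 6.72%), 11.8% in the unoverlapped HNF4A peaks of mixed clusters (10.1 to 13.8%) and 23.3% in the overlapped ones (20.1 to 26.8%). At the lowest score, 16, stood 51 peaks, or 8.69% (6.67 to 11.2%), against 10.0% of all kept. The share there was 12.1% in lone peaks (11.1 to 13.1%). In mixed clusters it was 9.79% of the unoverlapped HNF4A peaks (8.22 to 11.6%) and 7.49% of the overlapped ones (5.64 to 9.87%). The intervals of both overlap that of the FOXA2-free clusters. Both shares of the FOXA2-free clusters are near those of the whole list. Peak width had a median of 426 bp (419 to 437 bp), against 430 bp over all kept HNF4A peaks, 424 bp in lone peaks (420 to 429 bp) and 440 bp in the overlapped HNF4A peaks of mixed clusters (428 to 448 bp). Widths over 1 kb were found in 8 of the 587 peaks (1.36%, 0.692 to 2.67%), against 0.738% of all kept, and the widest was 2505 bp.

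**Figure D3:**
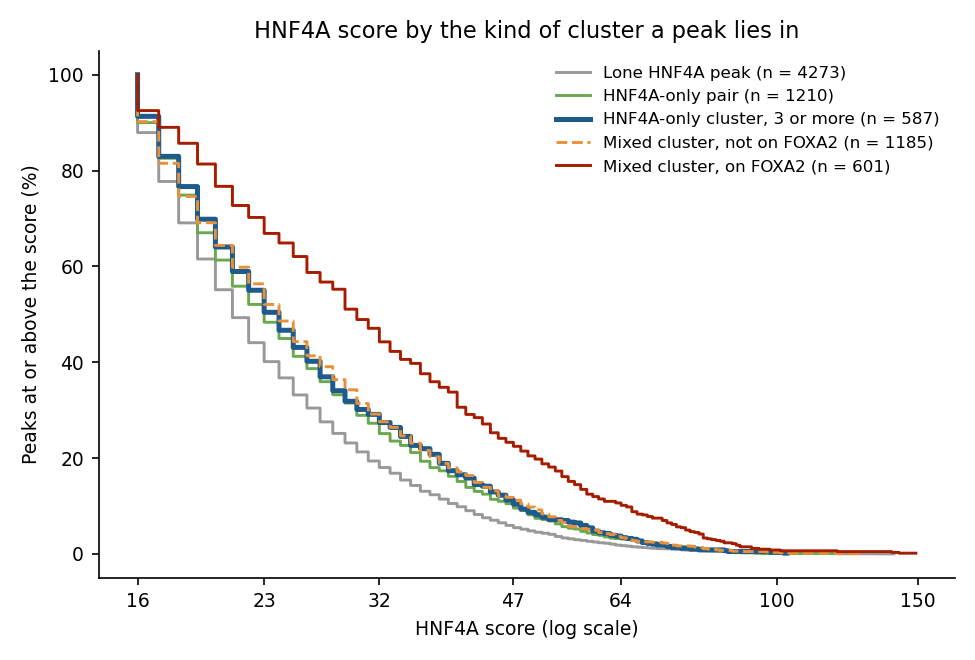
Percentage of HNF4A peaks at or above each score (horizontal axis, log scale) for lone peaks, HNF4A-only pairs, FOXA2-free clusters of 3 or more and the peaks of mixed clusters with or without an overlapping FOXA2 peak. The FOXA2-free clusters (thick line, median 24) run with the unoverlapped peaks of mixed clusters (dashed, median 24), above lone peaks (median 21) and below overlapped peaks (median 30).

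Within a cluster the peaks differed in score. The highest score was a median of 2-fold the lowest and at most 6.375-fold, and it was a median of 1.42-fold the second (interquartile range 1.21 to 1.95). In 41 of 173 clusters the highest peak was at least 2-fold the second. A peak of 47 or more was present in 60 of the 173 clusters, of which 6 had at least 2 such peaks. Counted by peak, 11.2% of the 587 peaks reached that score, against 10.6% of all HNF4A peaks kept. The 60 of 173 counts clusters of at least 3 peaks each, so it cannot be set against these shares of peaks. The counts of clusters were not made for mixed clusters, so they do not show a trait particular to FOXA2-free ones. In 25 clusters every peak stood at or above the list median of 23, and in 11 every peak stood below it. A highest peak standing at least 2-fold above the next was thus found in a minority of clusters. Scores of neighbours were hardly related, with Spearman's rho at 0.02 over 414 neighbouring pairs, all from 1 library. Spearman's rho was 0.02 in HNF4A-only pairs (n = 605) and 0.03 in mixed clusters (n = 1302). The weak relation is thus not particular to FOXA2-free clusters. The part of the variance in log2 score that lay between clusters was estimated at -4.25%, where a negative estimate stands for none. The estimate was 3.62% in HNF4A-only pairs and 1.91% in mixed clusters. The highest peak lay at an end of the cluster in 92.8 of the 129 clusters of 3 (a tie counted in parts), where even placement would give 86, and in 16 of the 32 clusters of 4, where it would give 16. In clusters of 5 or more it lay at an end in 3 of 12, against 4.20 with even placement. By cluster size, the median score was 24 in clusters of 3 (22 to 25), 25 in clusters of 4 (22 to 29) and 23 in clusters of 5 or more (22 to 24). Scores of 47 or more belonged to 40 of 387, 21 of 128 and 5 of 72 peaks, and at least 1 such peak was present in 38 of 129, 18 of 32 and 4 of 12 clusters. Clusters of 4 thus held such a peak more often than clusters of 3, while the medians overlapped and clusters of 5 or more did not continue the rise. A cluster with more peaks has more chances to hold a high one, and how far that sets the difference was not tested.

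The most populated cluster, on chromosome 18, spanned 9485314 to 9509156. Its 11 HNF4A peaks scored 39, 25, 44, 22, 16, 21, 19, 16, 45, 23 and 23 in order along 23.8 kb. The first 8 peaks form a dense group, in which gaps ran from 81 to 1660 bp. After 10055 bp without a peak, the last 3 follow at gaps of 2453 and 2155 bp, led by the highest of the cluster, 45. The nearest FOXA2 peak was 209.6 kb away. Its summed score of 293 was the highest of the 173 clusters, whose median was 92, though none of its 11 peaks scored above 45. Several gaps of the dense group were under 500 bp (314, 477, 218, 129 and 81 bp). Peaks that close cannot be told apart from fewer, broader regions, so the count of 11 and the summed score rest on the peaks as called.

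The longest cluster lay on chromosome 3 at 95439826 to 95479342, with 7 peaks over 39.5 kb. Their scores were 44, 22, 23, 31, 24, 23 and 17, and a FOXA2 peak of score 14 lay 17.2 kb away. Nearly as long was the cluster on chromosome 10 at 74492396 to 74531788, with 6 peaks of 16, 18, 35, 25, 17 and 17 over 39.4 kb. This cluster of low peaks had the lowest median score, 17.5, of the clusters of 5 or more. It held together by a gap of 12476 bp, close to the limit, so that a slightly shorter joining distance would divide it.

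Chromosome 4 held 3 of the 4 clusters with exactly 6 peaks. At 141277789 to 141311065, scores were 20, 63, 102, 34, 20 and 16: a summit of 2 neighbouring peaks 2058 bp apart with lower peaks on both sides. At 141114787 to 141135230 a single peak of 86 stood beside 22, 17, 22, 24 and 19. The first peak, of 22, lay 469 bp from that of 86, so that they cannot be told apart from 1 broader region. At 132025581 to 132048110 the scores were 19, 26, 23, 65, 36 and 46, the highest median, 31, of the clusters of 5 or more. Here 37 bp separated the peak of 23 from that of 65, so that they cannot be told apart from 1 broader region.

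The remaining 6 clusters of 5 peaks had no peak above 48. On chromosome 3 at 107828275 to 107848108 the scores fell along the coordinates, at 48, 34, 22, 16 and 16. On chromosome 5 at 44630491 to 44652873 they were 33, 19, 34, 22 and 23, and at 125791316 to 125828595 they were 17, 35, 23, 25 and 18. In these last 2 clusters the highest peak lay inside. On chromosome 4 at 82026353 to 82043199 they were 23, 19, 21, 34 and 28, on chromosome 15 at 85550721 to 85585037 they were 24, 19, 20, 23 and 39, and on chromosome 7 at 54297491 to 54318070 they were 22, 30, 21, 25 and 17. FOXA2 was nearest to the cluster on chromosome 15, at 13.8 kb, only just beyond the limit, and farthest from the one on chromosome 7, at 122.5 kb. These clusters on chromosomes 15 and 7 each held neighbours under 500 bp apart (391 and 356 bp). Such neighbours cannot be told apart from 1 region called in pieces.

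**Figure D4:**
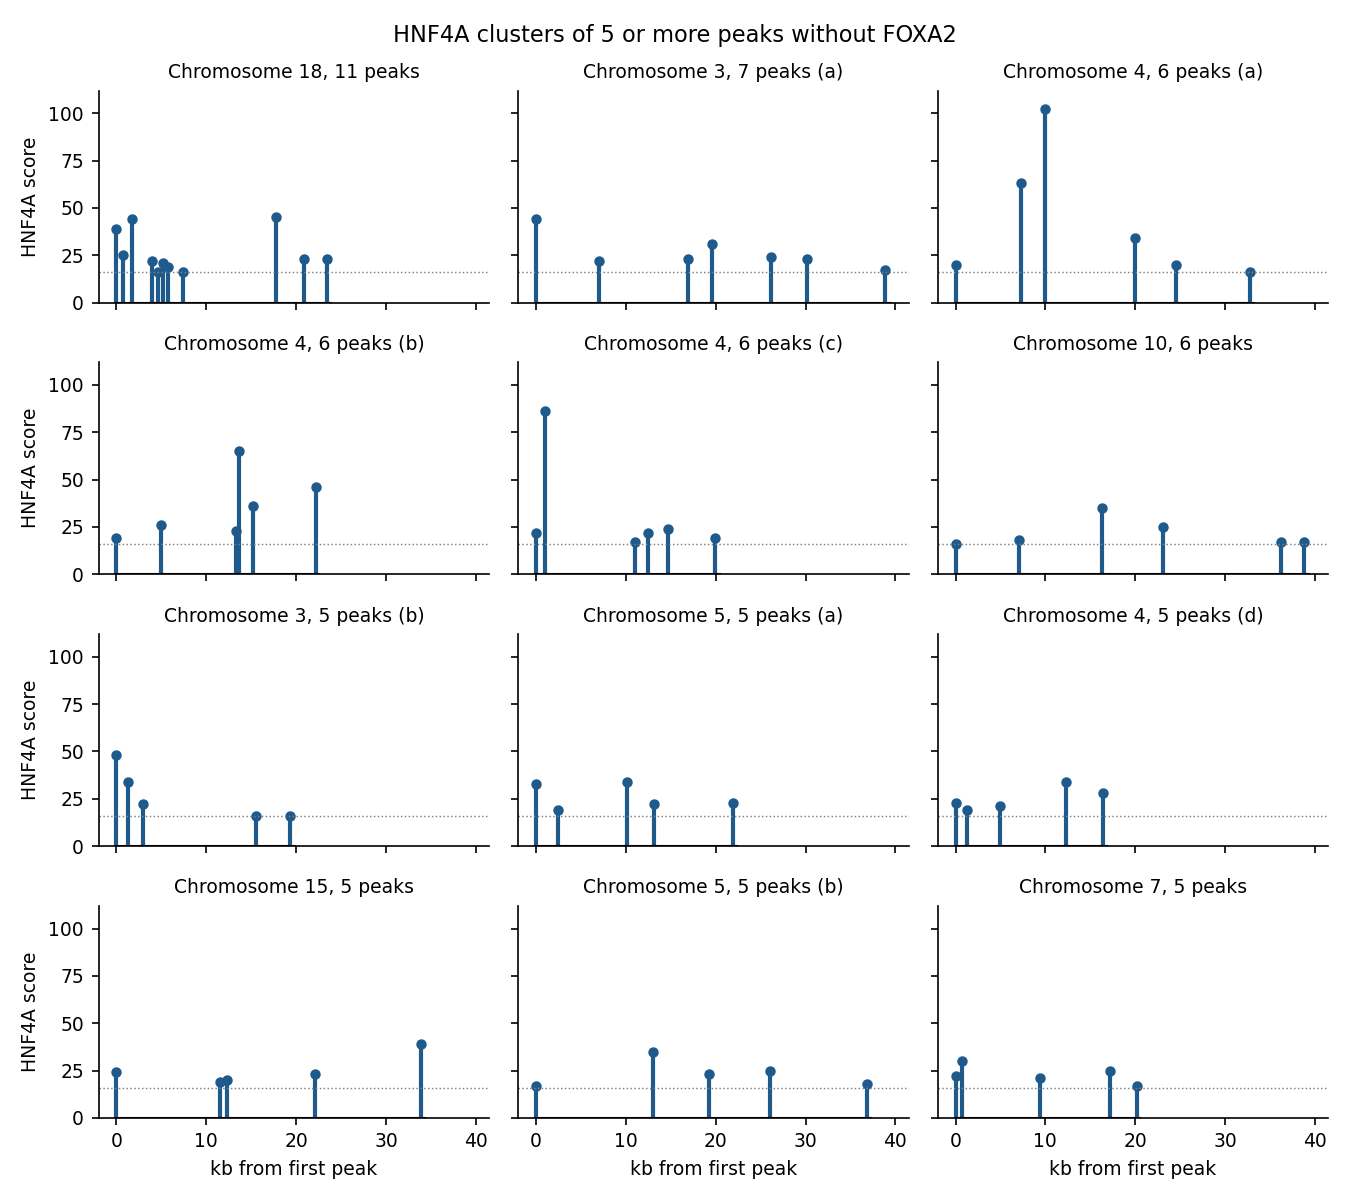
HNF4A score (vertical axis) of each peak against its distance in kb from the first peak, in the 12 FOXA2-free clusters of 5 or more peaks; letters tell clusters of 1 chromosome apart, and the dotted line marks the lowest score of the list, 16. The highest peak reaches 102, in a cluster on chromosome 4, and the cluster of 11 peaks has none above 45. Peaks are drawn as called, and those at most 500 bp apart may be 1 region called in pieces.

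The highest single peaks were spread over small and large clusters. The highest score, 103, belonged to a peak on chromosome 16 at 37580055 to 37580406, rank 30 of the 11646 kept HNF4A peaks, with neighbours of 25 and 45 in a cluster of 3. Next came 102 in the cluster of 6 on chromosome 4 described above, and 98 on chromosome 4 at 104489094 to 104489518, with neighbours of 38 and 18. The next, 87, lay on chromosome 14 at 37784389 to 37784790 beside 2 peaks of 38. This last cluster was remote from FOXA2, with the nearest peak 913.6 kb away, and all its peaks stood above the list median. The cluster of 6 on chromosome 4 at 141114787 to 141135230 gave 86. A cluster of 4 on chromosome 15 gave 80, at 59618286 to 59618661, with 30, 34 and 16. The others were 78 on chromosome 12 at 13009494 to 13009923, 76 on chromosome 18 at 65403667 to 65403996, 74 on chromosome 11 at 116056595 to 116057021 and 73 on chromosome 4 at 141626909 to 141627345. Of these 10 peaks 8 were in clusters of 3 or 4, which held 387 and 128 of the 587 peaks, and none of the 8 had a neighbour above 45. The lowest of the 10 ranked 251 in the kept list.

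The densest clusters measured under 3 kb. On chromosome 1 at 183187012 to 183188852, peaks of 16, 29 and 32 were 402 and 89 bp apart. On chromosome 8 at 118084983 to 118086524 peaks of 22, 59 and 22 were 228 and 506 bp apart, and on chromosome 6 at 138087406 to 138090148 peaks of 18, 57 and 29 were 668 and 822 bp apart. In the latter pair of clusters a high middle peak had a lower one on each side. Such spacing cannot be told apart from 1 binding region called in pieces. With HNF4A peaks at most 500 bp apart merged, 507 peaks in 152 clusters met the rule. That limit joins the gaps of 402, 89 and 228 bp but not those of 506, 668 and 822 bp.

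FOXA2-free clusters were not far from FOXA2 as a rule. The nearest FOXA2 peak lay a median of 52.2 kb away (39.5 to 67.3 kb), and the smallest distance was 12659 bp. It was within 25 kb for 44 clusters (25.4%), between 25 and 50 kb for 41 (23.7%), between 50 and 100 kb for 27 (15.6%), between 100 and 200 kb for 39 (22.5%) and farther for 22 (12.7%). About as many clusters as lone peaks were remote: 35.3% of clusters (28.5 to 42.6%) and 36.1% of lone HNF4A peaks (34.7 to 37.6%) had no FOXA2 peak within 100 kb. The median distance of lone peaks was 67.5 kb (64.8 to 70.1 kb) and that of HNF4A-only pairs 55.8 kb (48.3 to 60.4 kb). Distances were counted from the nearest edge of a cluster or peak, and the part that extent plays in them was not tested. The nearest FOXA2 peaks were ordinary members of their list, with a median score of 15 (14 to 17) against 15 over all kept FOXA2 peaks. An HNF4A peak overlapped 34.7% of them (28.0 to 42.0%), against 32.3% of all kept FOXA2 peaks.

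At the edge of the rule, 11 clusters had their nearest FOXA2 peak beyond the joining distance but within 15 kb and were kept, with a median of cluster median scores of 23 (95% interval 19 to 31, range 18 to 55). Only 4 HNF4A clusters had it between 10 kb and the joining distance and were left out, with cluster medians ranging from 16 to 50. FOXA2 peaks that had been removed beside input played no part, since none lay within 50 kb of a FOXA2-free cluster. The nearest input region was at least 101.2 kb away from every one of the 173. The number of FOXA2-free clusters did change with the FOXA2 threshold: counting only FOXA2 peaks at or above their median score of 15 left 264 clusters with 911 HNF4A peaks. A FOXA2 region below the lowest deposited score, 11, is not in the list, so absence of a peak does not show absence of FOXA2.

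The clusters lay on all 19 autosomes and on neither sex chromosome, though Y held only 1 kept HNF4A peak, too few for a cluster. On chromosome 11, 61 of 795 kept HNF4A peaks (7.67%, 6.02 to 9.73%) were in FOXA2-free clusters, the highest share, followed by chromosome 17 with 7.24% (5.20 to 9.99%) and chromosome 4 with 6.87% (5.30 to 8.86%). The lowest were chromosome 16 with 9 of 403 peaks (2.23%, 1.18 to 4.19%), chromosome 8 with 2.75% and chromosome 12 with 2.77% (1.63 to 4.68%). On X none of 121 HNF4A peaks belonged to such a cluster, which allows a share of up to 2.48%. That limit is below the 5.04% of the whole list, but a cluster brings in at least 3 peaks at once, so peaks are not independent draws. Chromosome 11 also had the most clusters, 19, against 3 on chromosome 16.

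Some FOXA2-free clusters were neighbours of each other. The median gap to the next one on the chromosome was 6394 kb, but 19 gaps were 500 kb or less and 4 were 100 kb or less. These 19 gaps joined 32 clusters into 13 runs. In 6 runs no FOXA2 peak lay anywhere in the span, so that the whole stretch, and not only each cluster, was free of it. The most populated run, picked out after its values were seen, lay on chromosome 4 at 141092287 to 141627345. Over 535 kb it held 23 HNF4A peaks, 19 of them in 4 FOXA2-free clusters and 4 of them lone, and no FOXA2 peak. The first cluster, at 141092287 to 141102100, had scores of 29, 39 and 18, and the next 2 were the clusters of 6 given above, with peaks of 86 and 102. The last, at 141608277 to 141627345, had scores of 22, 23, 39 and 73. Each of the last 3 clusters thus had a peak above 70. FOXA2 peaks came next at 18.3 kb before the run, with a score of 18, and at 102.4 kb after it, with a score of 29. The lone HNF4A peaks between the clusters scored 23, 48, 46 and 22.

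**Figure D5:**
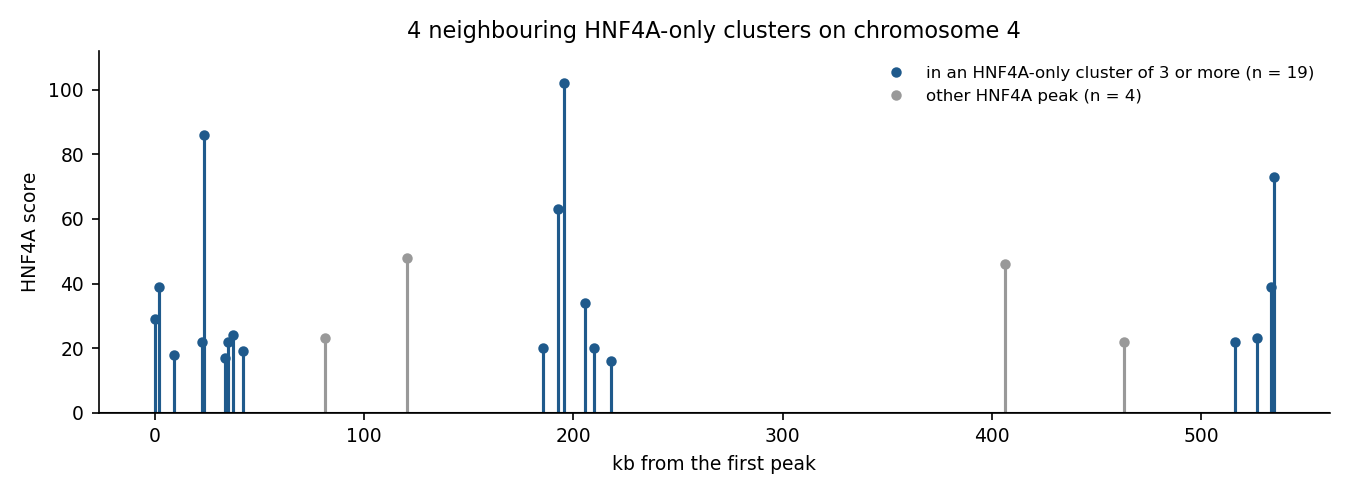
HNF4A score (vertical axis) against distance in kb from the first peak for the 23 HNF4A peaks of the 535 kb run on chromosome 4, with peaks of the 4 FOXA2-free clusters in blue (n = 19) and lone HNF4A peaks in grey (n = 4). No FOXA2 peak lies in the span; the highest peaks are 86, 102 and 73, in 3 different clusters.

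A run on chromosome 11 at 115026244 to 116064861 was built otherwise. It also held 4 FOXA2-free clusters, with 13 peaks, but they were spread over 1039 kb that contained 26 HNF4A peaks and 7 FOXA2 peaks with scores of 11 to 22. On chromosome 4 at 132025581 to 132318822, 10 of 11 HNF4A peaks were in 2 FOXA2-free clusters, and no FOXA2 peak lay in the 293 kb. On chromosome 10 at 79611645 to 79739315, chromosome 17 at 84235408 to 84556951 and chromosome 4 at 45802558 to 45993106, all 7 HNF4A peaks of the span belonged to FOXA2-free clusters, again without FOXA2. On chromosome 18 at 80639531 to 80731200 this held for all 6.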

How the data were processed

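The files are 3 lists of regions, 1 per library (HNF4A, FOXA2, input), without a header. The fourth column is a whole-number score that the authors deposited without a definition. Per the submitters' processing notes, the build is mm9. The sources used here do not give the aligner, peak caller, threshold or depth. Positions were read as 1-based with both ends included, chromosome prefixes were removed and 1 line of the FOXA2 file without a region was skipped.

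Peaks of both lists were joined at gaps of 12.5 kb or less, counted from edge to edge. Medians carry exact binomial 95% intervals from order statistics, shares carry 95% Wilson intervals, and the limit for a share of 0 is 3 counts. A share of pairs counts every peak of one class against every peak of the other, ties divided evenly. Cluster building was tested on simulated data. Regions named by rule were clusters of 5 or more peaks, the 10 highest peaks, and the 3 longest, 3 densest and 5 highest-sum clusters; runs of clusters were picked after their values were seen. The rule for the regions and these lists were chosen with earlier results of these data known. Gene and sequence annotation was planned but not run, because the tables of genes at hand are of another build. The work used scipy 1.17.1, pandas 2.3.3, numpy 2.4.6 and matplotlib 3.10.9 under Python 3.11.15.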

Additional observations from a re-analysis of the deposited data

How the results depend on the processing

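The 173 clusters and 587 peaks were the same in number without removal of peaks beside input and with removal within 50 kb of input. Joining HNF4A peaks alone and leaving out clusters with FOXA2 within the joining distance selects the same clusters by construction. Its equal numbers are therefore no check. With gaps from centre to centre there were 169 clusters and 567 peaks. The joining distance mattered more: at 5 kb there were 83 clusters with 259 peaks (median length 5.27 kb, spacing 1688 bp, distance to FOXA2 33.7 kb), at 8 kb 131 with 418 (8.07 kb, 2490 bp, 36.1 kb) and at 25 kb 212 with 752 (23.3 kb, 7240 bp, 80.6 kb). Other minimum sizes gave 778 clusters with 1797 peaks at 2 peaks or more (median length 5.93 kb), 44 with 200 at 4 (20.1 kb, peak width 442 bp) and 12 with 72 at 5 (23.2 kb, width 448.5 bp, distance to FOXA2 39.3 kb). FOXA2 peaks at or above their median score left 264 clusters with 911 peaks, a median of 99.9 kb from such a FOXA2 peak. HNF4A peaks at or above their median score left 44 clusters with 139 peaks, a median score of 32 and a median length of 14.2 kb. Merging HNF4A peaks at most 500 bp apart, added after the data were seen, raised the spacing to 4807 bp. Moves of the FOXA2 list gave 342 to 511 clusters with 1155 to 1821 peaks. Moving peaks of both lists one by one in a fixed cycle of offsets gave 7 to 11 clusters with 21 to 33 peaks, but that cycle gives neighbouring peaks offsets that differ by at least 25 kb and so breaks up clusters by construction. The median score of 24 stayed within its interval under 12 of 13 alternatives, among them joining HNF4A peaks alone, which changes nothing by construction. Leaving out replicates was not possible with 1 library per antibody. No paired analysis was possible because each antibody has 1 library.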
